A study of Mus musculus with 6 samples.

Results

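The 10 genes described here encode a ligand of the transforming growth factor-beta (TGF-beta) pathway (*Tgfb1*), its receptors and co-receptors and those of the bone morphogenetic protein (BMP) branch (*Tgfbr1*, *Tgfbr2*, *Tgfbr3*, *Eng*, *Acvrl1*, and *Bmpr2*), an inhibitory SMAD (*Smad6*), and the target genes *Id1* and *Id4*. They were matched by gene symbol, and all 10 were found among the 32287 genes counted. Cells came from microvascular fragments of 1 cerebral hemisphere per mouse, captured on CD31 antibody beads and sequenced on the 10x Genomics platform as 1 library per mouse. The control group was 3 wild-type (WT) mice of the C57BL/6J strain, and the other group was 3 mice of the genotype labelled AppArcSwe (ArcSwe), which carry a human amyloid precursor protein gene with the Swedish and Arctic mutations of familial Alzheimer's disease. All 6 mice were male, untreated, and 12 months old, and the promoter that drives the transgene is not given in the sources used here.

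TGF-beta is stored outside the cell in a latent form. Once freed, it is bound by the type 2 receptor TGFBR2, which activates the type 1 receptor TGFBR1 and through it SMAD2 and SMAD3, and in the brain this branch is known for keeping microglia in their resting identity. In endothelial cells a parallel branch runs from BMP ligands through BMPR2 and ACVRL1 (ALK1), with endoglin (ENG) as co-receptor, to SMAD1 and SMAD5, and it switches on *Id* genes and the feedback inhibitor *Smad6*. Loss-of-function mutations of *ENG* and *ACVRL1* cause hereditary hemorrhagic telangiectasia, a disease of arteriovenous malformations.

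The libraries held 2907 to 14928 deposited cells and 26436229 to 59161203 unique molecular identifiers (UMIs, counted transcripts) each. Pairs of libraries shared 4 to 42 cell barcodes, at most 0.55% of the smaller library. After filtering, clustering gave arterial-like, capillary-like, and venous-like endothelial cells, which together are called barrier endothelial-like cells, fenestrated-like endothelial cells, pericyte-like and smooth muscle-like cells, together called mural-like cells, and microglia-like cells. Smaller clusters of fibroblasts, astrocytes, choroid plexus epithelium, lymphocytes, and erythroid cells, and unnamed clusters, were also found. Gene levels are not described in those clusters. The classes were named from markers and held 63 to 219 fenestrated-like, 43 to 280 venous-like, 26 to 286 pericyte-like, and 225 to 2363 microglia-like cells per mouse. All 7 fenestrated, 8 pericyte, 9 smooth muscle, and 12 microglia markers were highest in their own class, as were 10 of 11 arterial, 6 of 8 capillary, and 9 of 10 venous markers. Some libraries stood apart in microglia-like cells. In WT replicate 3, 1330 of the 1496 microglia-like cells fell in a single cluster with few ribosomal transcripts, most microglia-like cells of the 3 ArcSwe libraries were also in clusters of this kind, and the median UMI number per microglia-like cell was 5950 and 5351 in WT replicates 1 and 2 but 1172 to 2003 in the other 4 libraries. The genotype comparisons in microglia-like cells are therefore given with and without these clusters, while the levels by class include them.

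Levels are given in CPM, the UMI counts of a gene in all cells of a class of 1 mouse, scaled to the same library total, and the order of classes for a gene is a description without a test. The genes fell into different parts of the preparation. Among the classes described, *Tgfb1*, *Tgfbr1*, and *Tgfbr2* were highest in microglia-like cells, while the other 7 genes, among them every gene of the BMP branch, were highest in an endothelial-like class. *Tgfbr1* had a mean level in microglia-like cells 11.6-fold that of the next class, and *Id4* was 6.79-fold higher in fenestrated-like cells than in the next class.

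*Tgfb1*, the ligand (chromosome 7, 25687002 to 25705077 on the plus strand, in the GRCm38 assembly that corresponds to mm10), reached 354 ± 57.5 CPM in microglia-like cells (SD, n = 6 mice) and 228 ± 28.6 CPM in fenestrated-like cells. Microglia-like cells were above fenestrated-like cells in 6 of 6 mice, but the ranges of 253 to 418 and 194 to 276 CPM overlapped. The barrier zones lay lower, at 115 ± 12.2 CPM in arterial-like, 110 ± 6.73 in capillary-like, and 143 ± 29.1 in venous-like cells. The ranges of these zones overlapped, but capillary-like cells were above venous-like cells in 0 of 6 mice. Smooth muscle-like cells had the lowest level, 44.3 ± 12.7 CPM.

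*Tgfbr1*, the type 1 receptor of TGF-beta (chromosome 4, 47353222 to 47414931, plus strand), stood at 1019, 994, and 1696 CPM in the microglia-like cells of WT replicates 1 to 3 and at 771, 1063, and 808 CPM in those of ArcSwe replicates 1 to 3. Every microglial value was above every value of the other 6 classes, whose means ran from 46.5 CPM in smooth muscle-like to 91.3 CPM in fenestrated-like cells and overlapped from each neighbour to the next. After each cell was thinned to 1000 UMIs, 60.4% of microglia-like cells had a *Tgfbr1* UMI, and 3.32% to 6.91% of cells in the other classes had one. Unthinned, the shares were 81.8% in microglia-like cells and 16.1% to 30.3% elsewhere.

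*Tgfbr2*, the ligand-binding type 2 receptor (chromosome 9, 116084293 to 116175360, minus strand), was more evenly spread than *Tgfbr1*. Its mean level was 439 ± 57.2 CPM in microglia-like, 405 ± 38.9 in fenestrated-like, 339 ± 23.4 in arterial-like, 332 ± 16.1 in capillary-like, and 286 ± 28.6 in venous-like cells (SD, n = 6). Microglia-like and fenestrated-like cells overlapped, whereas every fenestrated-like value was above every arterial-like value and every capillary-like value above every venous-like value. Smooth muscle-like cells were again lowest, at 88.6 ± 18.7 CPM.

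*Tgfbr3* (betaglycan, a co-receptor that presents ligand; chromosome 5, 107106570 to 107289629, minus strand) was lowest where *Tgfbr1* and *Tgfbr2* were highest. Its level was 195 ± 24.3 CPM in capillary-like, 174 ± 33.1 in venous-like, 169 ± 43.2 in pericyte-like, 120 ± 18.4 in smooth muscle-like, 106 ± 10.5 in arterial-like, and 86.6 ± 25.7 in fenestrated-like cells, with overlap at each step. Capillary-like cells were nevertheless above arterial-like cells in each mouse, and their ranges of 160 to 217 and 95.6 to 120 CPM did not overlap. Every microglia-like value lay below every value of these classes, at a mean of 20 ± 17.6 CPM.

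*Eng*, the endoglin co-receptor (chromosome 2, 32646595 to 32682669, plus strand), was highest in fenestrated-like cells and fell in steps over the barrier zones from arterial-like to venous-like cells. It stood at 1164 ± 149 CPM in fenestrated-like, 949 ± 50.6 in arterial-like, 704 ± 26.2 in capillary-like, and 448 ± 43.9 in venous-like cells (SD, n = 6), and none of these ranges overlapped with the next. Arterial-like cells thus held 1.35-fold the capillary-like level, and capillary-like cells 1.57-fold the venous-like level. *Acvrl1*, the endothelial type 1 receptor ALK1 (chromosome 15, 101128522 to 101145336, plus strand), was highest in arterial-like cells, at 625 ± 31.2 CPM, above every value of the fenestrated-like (493 ± 31.7), capillary-like (493 ± 23.7), and venous-like cells (480 ± 38.6), which overlapped with each other. *Bmpr2*, the type 2 receptor of the branch (chromosome 1, 59763400 to 59879014, plus strand), was flat over the barrier zones, at 680 ± 46.5 CPM in capillary-like, 654 ± 52.6 in venous-like, and 638 ± 40.5 in arterial-like cells, and was 1.26-fold higher in fenestrated-like than in capillary-like cells, in 6 of 6 mice but with overlapping ranges.

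*Smad6*, which blocks BMP receptor signalling (chromosome 9, 63953076 to 64022059, minus strand), was also zoned within the barrier. Its level was 196 ± 21.2 CPM in arterial-like, 127 ± 29.3 in fenestrated-like, 54.5 ± 6.05 in capillary-like, and 35 ± 6.38 in venous-like cells, and no range overlapped with that of the next class. *Id1*, an inhibitor of basic helix-loop-helix transcription factors (chromosome 2, 152736251 to 152737410, plus strand), shared the arterial-like peak but not the second place. It reached 1925 ± 280 CPM in arterial-like, 1370 ± 317 in venous-like, and 1363 ± 224 in capillary-like cells, and arterial-like cells were higher than venous-like cells in 6 of 6 mice, with overlap of the ranges. In fenestrated-like cells, where *Smad6* and *Eng* were high, *Id1* was at 553 ± 105 CPM, 37.2% of its level in barrier endothelial-like cells. *Id4*, a relative of *Id1* (chromosome 13, 48261228 to 48266026, plus strand), was, among the 7 classes described, nearly restricted to the fenestrated-like class, with 93 ± 35.7 CPM there, 13.7 ± 4.88 CPM in smooth muscle-like cells, and 0.777 to 5.37 CPM as the mean of the other 5 classes. Of fenestrated-like cells thinned to 1000 UMIs, 6.62% had an *Id4* UMI, beside 0.683% of smooth muscle-like and 0.0413% of microglia-like cells (31.5%, 5.05%, and 0.153% unthinned).

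**Figure D1:**
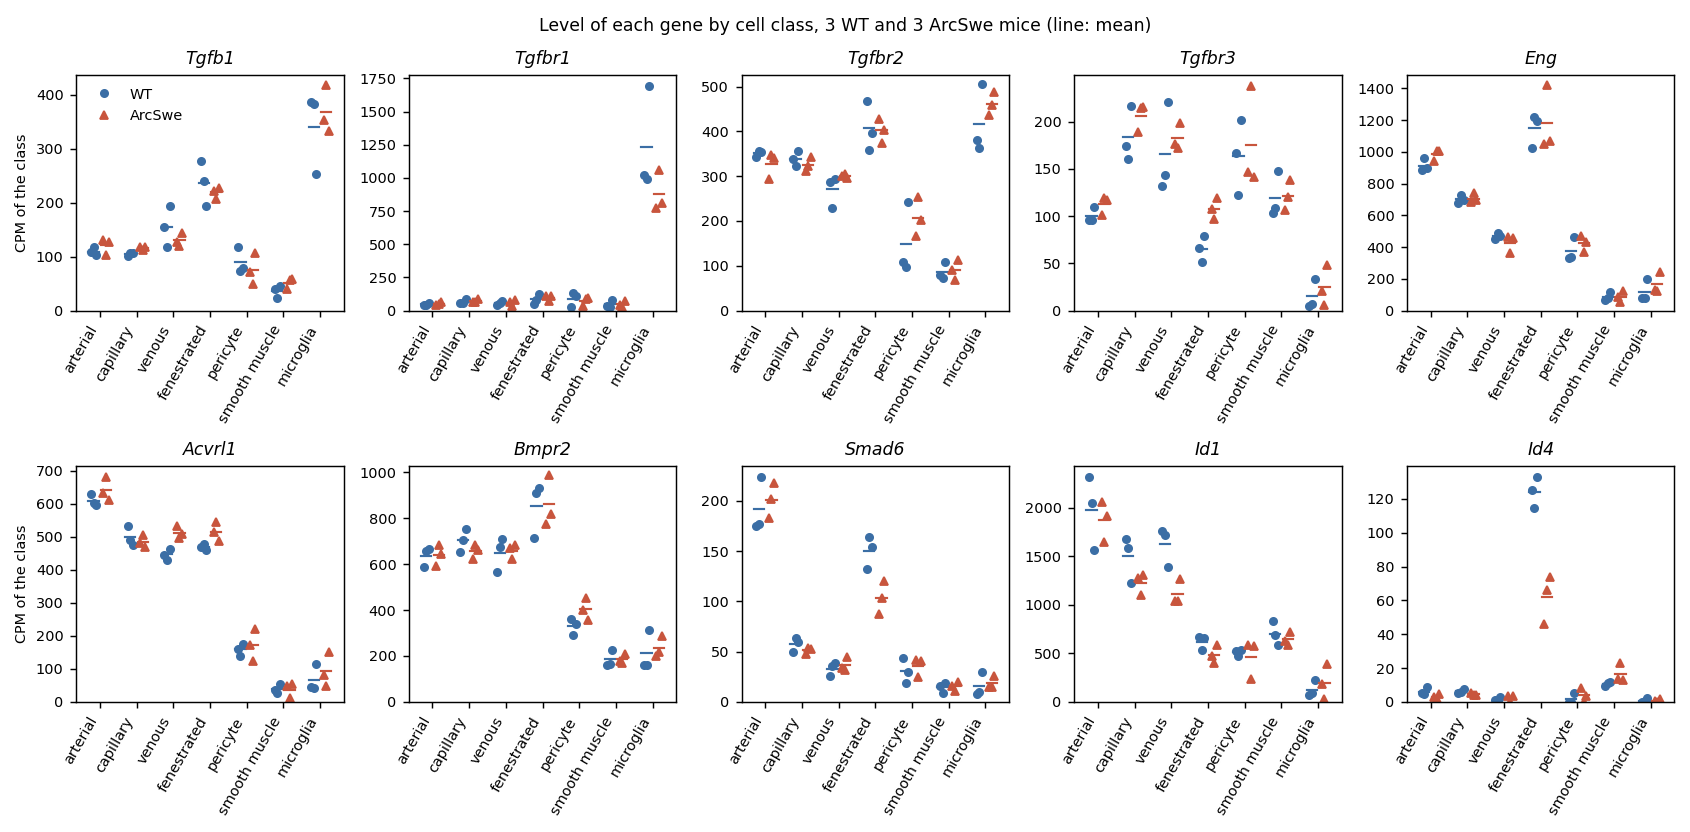
Level of each gene, in CPM on a linear axis from 0, in the 7 separate cell classes. Each point is 1 mouse (blue circles WT, red triangles ArcSwe, 3 each) and each short line a genotype mean; *Tgfbr1* stands out in microglia, where it lay between 771 and 1696 CPM, and *Id4* in fenestrated cells, where the WT mice lay between 114 and 133 CPM and the ArcSwe mice between 45.8 and 73.7 CPM.

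Of these genes, 7 have a promoter sequence in the RefSeq table used here (GRCm38.p6, 250 bases before to 50 after the start), and *Id1*, *Tgfbr3*, and *Acvrl1* do not. The promoters of *Smad6* and *Id4* are shown because, among the 7 genes with a promoter sequence, these had the steepest steps between endothelial classes. Both genes lie downstream of BMP receptors. Capitals mark GTCT or its reverse complement AGAC, the SMAD box, and GGCGCC, a GC-rich SMAD site that reads the same on the other strand. The *Smad6* sequence is chr9:64022010-64022309 on the minus strand and the *Id4* sequence chr13:48260866-48261165 on the plus strand, both written 5′ to 3′.
Smad6: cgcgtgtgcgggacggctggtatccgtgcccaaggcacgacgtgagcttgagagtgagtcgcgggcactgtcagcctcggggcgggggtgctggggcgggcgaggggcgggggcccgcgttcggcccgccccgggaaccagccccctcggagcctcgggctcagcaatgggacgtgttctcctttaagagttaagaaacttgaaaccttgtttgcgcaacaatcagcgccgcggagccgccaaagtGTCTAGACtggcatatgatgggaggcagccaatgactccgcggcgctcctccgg
Id4: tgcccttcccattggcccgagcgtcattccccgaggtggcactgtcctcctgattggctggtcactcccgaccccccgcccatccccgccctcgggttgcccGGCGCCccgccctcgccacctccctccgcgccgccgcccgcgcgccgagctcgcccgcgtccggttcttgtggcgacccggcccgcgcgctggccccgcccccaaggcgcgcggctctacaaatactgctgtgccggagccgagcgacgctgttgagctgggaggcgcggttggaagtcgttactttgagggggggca
The *Smad6* promoter holds 2 adjoining SMAD boxes and no GGCGCC, and the *Id4* promoter holds 1 GGCGCC and no SMAD box. A SMAD box is present in 88% of all 32851 promoters of this length and GGCGCC in 11.9%, so these matches are a description of the letters only.

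Transcripts of endothelial cells were also counted in other classes, and the members' levels there are given beside those of 8 endothelial markers. In microglia-like cells these markers stood at a median of 11.1% of their level in barrier endothelial-like cells, from 3.69% to 26.7% by mouse. As means over mice, *Id1* (10.9%), *Tgfbr3* (11.5%), *Acvrl1* (15.3%), *Eng* (19%), and *Smad6* (19.8%) lay within that range in microglia-like cells. *Bmpr2*, at 33.4%, lay above it. Within mice the picture differed by gene. The markers stood at 3.69%, 3.85%, and 3.87% in WT replicates 1 and 2 and ArcSwe replicate 2. The lowest mouse was at 10.3% for *Eng*, 8.09% for *Acvrl1*, and 10.6% for *Smad6*, above these 3 values, but at 2.31% for *Id1* and 2.92% for *Tgfbr3*. *Tgfb1* (313%), *Tgfbr1* (1669%), and *Tgfbr2* (133%) exceeded their own endothelial level there. In smooth muscle-like cells the markers stood at 6.49%, from 2.56% to 10.9% by mouse. *Acvrl1* was within this range at 7.3%, while *Id1* was at 45.3% and *Tgfbr3* at 69.3%, and *Id4* was at 272%. In pericyte-like cells the markers stood at 34.7%, from 23.8% to 42.7% by mouse, so that as means over mice only *Tgfbr1* (128%), *Tgfbr3* (97.5%), *Tgfb1* (73.3%), *Id4* (55.8%, from at most 3 UMIs in a mouse), *Bmpr2* (54.8%), *Tgfbr2* (53.9%), and *Eng* (53.6%) lay above the range. The lowest mouse was not above it for *Bmpr2* (42.3%), *Tgfbr2* (30%), and *Id4* (0%). It was above the range for *Tgfbr1*, *Tgfbr3*, *Tgfb1*, and *Eng*. When pericyte-like cells were limited to the part of the cluster with few endothelial transcripts (5 mice), *Id1* was at 182 CPM in place of 490 and *Acvrl1* at 66 CPM in place of 165. Microglial transcripts were counted in other classes as well. The 10 microglial markers stood at 4.22% of their microglial level in pericyte-like cells (0% to 11.6% by mouse) and at 2.11% in smooth muscle-like cells (0.382% to 5.61%). *Tgfbr1*, at 4.4% of its microglial level in smooth muscle-like cells, lay within that range. Its pericyte-like level of 81.4 CPM stands beside 1059 CPM in microglia-like cells. For *Tgfbr1*, a level above the endothelial range is therefore not shown to come from mural-like cells. The part of carried-over RNA in these levels was not tested further.

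**Figure D2:**
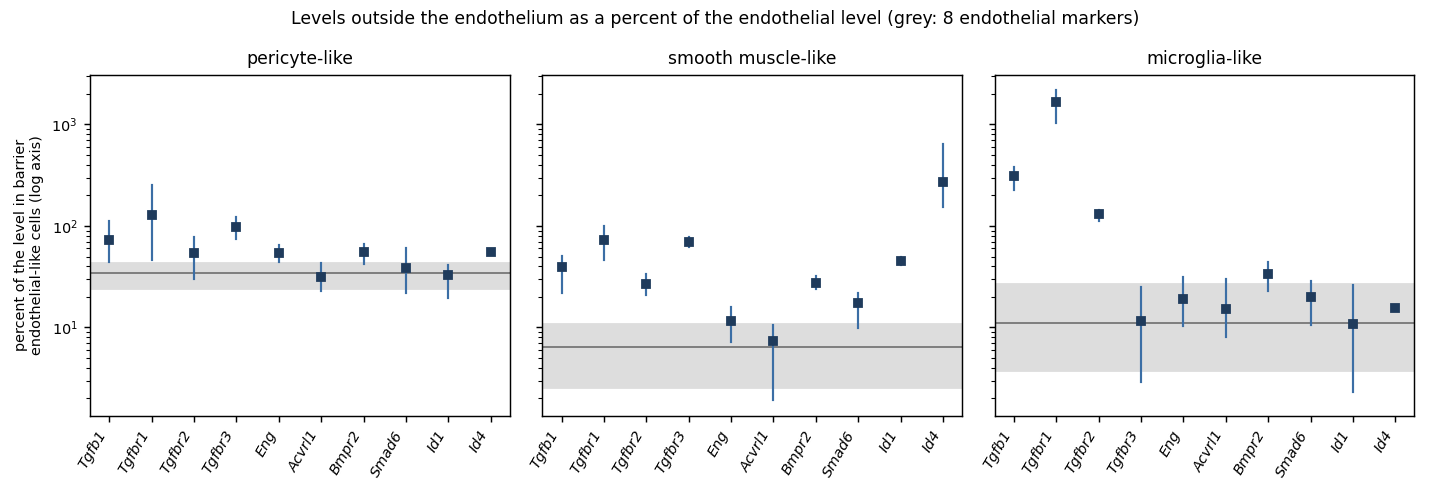
Level of each gene in pericyte-like, smooth muscle-like, and microglia-like cells as a percent of its level in barrier endothelial-like cells, on a log axis; squares are means over 6 mice, lines run from the lowest to the highest mouse (not drawn where the lowest is 0), and the grey line and band give the median of 8 endothelial markers and its range over mice. In microglia-like cells the means of *Tgfb1*, *Tgfbr1*, and *Tgfbr2* lie above 100%, and the means of *Tgfbr3*, *Eng*, *Acvrl1*, *Smad6*, and *Id1* within the band.

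Over the means of the 7 classes, each taken as log2(CPM + 1), *Acvrl1* followed *Bmpr2* (Pearson's r = 0.97), and *Eng* followed *Bmpr2* (0.96), *Acvrl1* (0.95), and *Smad6* (0.92), while *Tgfbr1* ran against *Tgfbr3* (-0.90). These values describe 7 points that share libraries and neighbouring cells. Among 11385 genes, the patterns most alike were those of *Fbrs*, *Myo1g*, and *Cd22* for *Tgfbr1*, *Etv3*, *Baz1a*, and *Plbd2* for *Tgfb1*, *Zcchc2*, *Glmp*, and *Tbc1d10a* for *Tgfbr2*, and *Lage3*, *Tada2b*, and *Psmg2* for *Tgfbr3*. For *Bmpr2* they were *Tie1*, an endothelial receptor tyrosine kinase, *Cyyr1*, and *Zbtb46*, for *Acvrl1* *Ccm2l*, *Cr1l*, and *Prrg2*, and for *Eng* *Pik3r3*, *Lpar4*, and *Dock1*. For *Smad6* they were *Gm14207*, *Dmtn*, and *Cables2*, for *Id1* *Uqcc2*, *Naxe*, and *Ppme1*, and for *Id4* *Bahcc1*, *Ptges3*, and *Tcim*. All of these r values lay between 0.968 and 0.999.

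Of 59 other genes of the pathway, the 3 with the highest mean level in each role group place the members. Among genes of ligand storage and ligands, *Ltbp4*, a latent TGF-beta binding protein, was highest in arterial-like cells (1383 CPM against 571 in capillary-like cells), *Tgfb2* was also highest there (375 CPM), and *Ltbp1* was highest in smooth muscle-like cells (560 CPM). Among receptors, *Acvr1* was highest in arterial-like cells (143 CPM) and *Acvr2a* in fenestrated-like cells (89.4 CPM). *Bmpr1a*, another BMP type 1 receptor, had the opposite place to *Acvrl1*, with 277 CPM in smooth muscle-like and 152 CPM in pericyte-like cells and 3.1 to 8.37 CPM in the 4 endothelial-like classes. Of the SMADs, *Smad4*, *Smad1*, and *Smad2* varied less, and *Smad1* was highest in venous-like cells (153 CPM). Of the inhibitors, *Skil*, which represses SMAD-driven transcription, was highest in microglia-like cells (970 CPM), *Smad7* was at 475 CPM in arterial-like, 469 in fenestrated-like, and 423 in microglia-like cells, and *Fkbp1a*, which binds type 1 receptors, was lowest in microglia-like cells (81.9 CPM). Of the targets, *Id3* was at 1651 CPM in arterial-like and 1608 CPM in smooth muscle-like cells, and *Ccn1* and *Cdkn1a* were lowest in microglia-like cells.

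The genotypes were then compared in each class with the quasi-likelihood test of edgeR over all genes, with Benjamini-Hochberg adjustment. No difference of the 10 genes between ArcSwe and WT mice passed an adjusted p of 0.05 in any of 9 classes, counting barrier endothelial-like and mural-like cells as classes of their own. Of 86 pairs of a gene and a class that could be tested, 0 passed (adjusted p from 0.718 to 1.00), 4 had an unadjusted p under 0.05, and 13 had no overlap between the 3 WT and 3 ArcSwe mice after scaling of the libraries by the trimmed mean of M-values (TMM), the scale on which overlap is counted throughout. By class, 7.86% to 14.2% of all genes tested had no overlap. DESeq2 also called 0 of them. Over all genes, edgeR called 0% in barrier endothelial-like, capillary-like, venous-like, fenestrated-like, mural-like, pericyte-like, and smooth muscle-like cells, 0.00901% in arterial-like cells, and 0.0346% in microglia-like cells. An unadjusted p under 0.05 was found for 4.43% of all genes in barrier endothelial-like, 4.03% in arterial-like, 4.58% in capillary-like, 3.72% in venous-like, 4.06% in fenestrated-like, 2.53% in mural-like, 2.71% in pericyte-like, 2.74% in smooth muscle-like, and 7.78% in microglia-like cells. Nothing in the labels names the mice as littermates, and the p-values measure the spread between these 6 mice.

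In barrier endothelial-like cells, the class with the most counts, the 10 genes had log2 fold changes from -0.49 to 0.18, with a median of 0.0054 beside 0.00059 over all 13469 genes tested. *Eng* was at 711, 764, and 736 CPM in the WT mice and 726, 787, and 758 CPM in the ArcSwe mice, a log2 fold change of 0.049 with a 95% confidence interval of -0.19 to 0.29 (edgeR, adjusted p = 0.991). The intervals of *Acvrl1* (-0.21 to 0.25), *Bmpr2* (-0.29 to 0.17), *Tgfbr2* (-0.24 to 0.15), *Tgfb1* (-0.059 to 0.32), and *Tgfbr3* (-0.036 to 0.39) were about as narrow, and the groups overlapped for each of these genes. *Smad6* had a log2 fold change of -0.0051 (-0.28 to 0.27), and *Tgfbr1* of 0.13 (-0.24 to 0.49). *Id1* was at 1812, 1678, and 1333 CPM in WT and 1433, 1215, and 1457 CPM in ArcSwe mice, a log2 fold change of -0.23 (-0.61 to 0.16; adjusted p = 0.991), with overlap because of WT replicate 3. Only *Id4* did not overlap, as did 10.2% of all genes tested in this class. It had 4.87 to 7.63 CPM in WT and 3.58 to 4.68 CPM in ArcSwe mice (log2 fold change -0.49, SE 0.21, adjusted p = 0.991).

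By zone, the only unadjusted p under 0.05 was that of *Id1* in venous-like cells. It was at 1761, 1722, and 1388 CPM in the WT mice and 1043, 1045, and 1263 CPM in the ArcSwe mice, so that every WT mouse was above every ArcSwe mouse. The log2 fold change was -0.55 (SE 0.20, 95% confidence interval -0.96 to -0.13), with an unadjusted p of 0.0139 and an adjusted p of 0.999 (edgeR). *Acvrl1* (log2 fold change 0.19, 95% confidence interval -0.16 to 0.54) and *Tgfbr2* (0.15, -0.20 to 0.51) were on the other side of 0 in venous-like cells without overlap. These 3 of 9 genes tested stand beside 8.61% of all genes in the class without overlap. The *Id1* levels of the genotypes overlapped in arterial-like and capillary-like cells, and the difference between zones was not tested. *Id4* had too few counts in venous-like cells to be tested. In capillary-like cells only *Tgfb1* did not overlap, at 100, 107, and 106 CPM in WT and 118, 112, and 117 CPM in ArcSwe mice (log2 fold change 0.16, 95% confidence interval -0.025 to 0.34, adjusted p = 0.966), where 10.5% of all genes did not overlap. In arterial-like cells only *Id4* did not overlap, beside 9.04% of all genes, with 13 to 35 UMIs per WT and 3 to 22 UMIs per ArcSwe mouse (log2 fold change -0.87, SE 0.39, adjusted p = 0.999).

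The fenestrated-like cells, a type known from the leaky vessels of sites such as the choroid plexus, held 3 of the 4 pairs with an unadjusted p under 0.05. *Id4* was at 125, 114, and 133 CPM in the WT mice and at 45.8, 66.2, and 73.7 CPM in the ArcSwe mice. All WT values were above all ArcSwe values, and these rested on 53, 82, and 83 UMIs in WT and 46, 30, and 54 UMIs in ArcSwe mice. The log2 fold change was -1.01 (SE 0.21, 95% confidence interval -1.47 to -0.55), with an unadjusted p of 0.000422 and an adjusted p of 0.848 (edgeR). Without the filter on low counts the adjusted p of *Id4* was 0.00376, where edgeR called 0.376% of 16482 genes in place of 0% of 8051. Under the other alternatives its adjusted p ran from 0.311 to 1.00. The share of fenestrated-like cells with an *Id4* UMI was 48.6%, 39.4%, and 34% in the WT and 15.1%, 31.7%, and 20.3% in the ArcSwe mice. Thinned to 2000 UMIs per cell it was 22.1%, 13.6%, and 17.8% against 6.56%, 11.9%, and 12.9%, still without overlap, but thinned to 1000 UMIs it was 6.94%, 6.11%, and 7.01% against 3.92%, 6.56%, and 9.19%, and the groups overlapped.

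*Tgfbr3* and *Smad6* also differed without overlap in fenestrated-like cells, in opposite directions. *Tgfbr3* was at 66.1, 51.6, and 78.5 CPM in WT and 108, 97.1, and 119 CPM in ArcSwe mice (log2 fold change 0.75, SE 0.20, unadjusted p = 0.00268, adjusted p = 0.911 in edgeR). *Smad6* was at 132, 165, and 154 CPM in WT and 87.7, 104, and 120 CPM in ArcSwe mice (log2 fold change -0.53, SE 0.18, unadjusted p = 0.0134, adjusted p = 1.00). *Id1* had the same sign as *Smad6* but overlapped, with 670, 537, and 656 CPM in WT and 469, 404, and 583 CPM in ArcSwe mice (log2 fold change -0.33, 95% confidence interval -0.73 to 0.059). *Acvrl1* was the other gene without overlap (log2 fold change 0.15, 95% confidence interval -0.19 to 0.49). Thus 4 of the 10 genes did not overlap in this class, beside 9.29% of all genes tested. *Tgfb1* (-0.090), *Tgfbr1* (0.20), *Tgfbr2* (0.0051), *Eng* (0.050), and *Bmpr2* (0.027) had intervals that included 0, the widest being that of *Tgfbr1*, from -0.39 to 0.80. The summed markers of other cell types overlapped between the genotypes in this class. Their part in the differences of *Id4*, *Tgfbr3*, and *Smad6* was not tested. The summed astrocyte markers, which matter because astrocytes also express *Id4*, were at 146 to 212 CPM in WT and 188 to 244 CPM in ArcSwe mice, with *Aqp4* at 0 in all mice, and the 7 fenestrated markers were at 12448 to 13707 and 10995 to 14340 CPM. Choroid plexus epithelial markers ran from 30.7 to 924 CPM in WT and 106 to 965 CPM in ArcSwe mice. Erythroid markers ran from 384 to 2492 CPM in WT and 390 to 14771 CPM in ArcSwe mice.

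**Figure D3:**
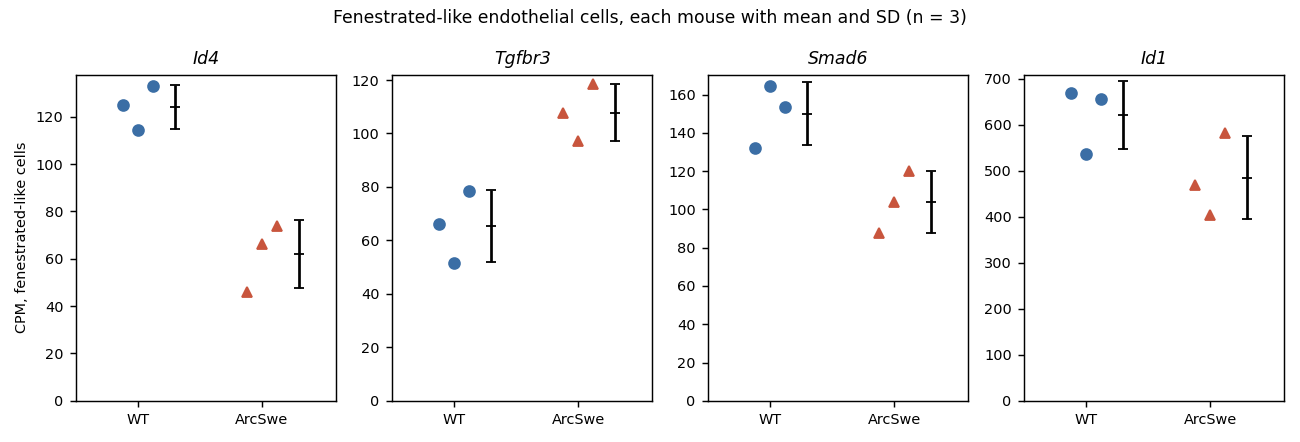
Level of *Id4*, *Tgfbr3*, *Smad6*, and *Id1* in fenestrated-like endothelial cells, in CPM on linear axes from 0; each point is 1 mouse and the bars beside them give the mean and SD of 3 mice. *Id4* and *Smad6* were lower and *Tgfbr3* higher in each ArcSwe mouse than in each WT mouse, and *Id1* overlapped; none of the 4 passed an adjusted p of 0.05.

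In mural-like cells the log2 fold changes ran from -0.13 to 0.54 with a median of 0.17, beside 0.0077 over all genes, and 9 of 10 genes were above 0. These signs depended on single mice. With a mouse left out, *Tgfbr1* ran from -0.41 to 0.55, *Eng* from -0.14 to 0.41, and *Acvrl1* from -0.21 to 0.49. *Tgfbr2*, *Tgfbr3*, and *Smad6* also fell below 0 in such refits, and *Id1* rose above 0. *Id4* had the sign opposite to that in the endothelium. It was at 9.36, 11.1, and 11.9 CPM in the smooth muscle-like cells of WT mice and at 13.5, 23.2, and 13.1 CPM in those of ArcSwe mice, from 24 to 65 UMIs per mouse. These groups did not overlap (log2 fold change 0.57, 95% confidence interval -0.046 to 1.18, adjusted p = 1.00), beside 8.71% of all genes in the class. Without ArcSwe replicate 2 the log2 fold change of *Id4* was 0.30, and with a stricter filter on cells it was 0.34 with overlap. The summed markers of fenestrated endothelium, the class with the highest *Id4* level, were at 493 to 578 CPM in the smooth muscle-like cells of WT and 604 to 662 CPM in those of ArcSwe mice, and perivascular macrophage markers at 16.2 to 25.1 and 25.4 to 32.5 CPM, both without overlap. Over the 7 fenestrated markers the median level was 0.352% of that in fenestrated-like cells, from 0.0764% to 12.5% by marker, so the sum rests unevenly on them. The part of either marker set in the *Id4* difference was not tested. In mural-like cells together the value was 0.54 (-0.091 to 1.16), also without overlap, beside 7.86% of all genes. No other gene was without overlap in mural-like or smooth muscle-like cells, and 0 of the 8 tested were in pericyte-like cells, beside 8.2% of all genes. In pericyte-like cells the log2 fold changes ran from -0.24 to 0.36. *Smad6* and *Id4* had too few counts there to be tested.

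Whether ArcSwe mice departed from WT mice differently in mural-like than in barrier endothelial-like cells was tested directly. The difference of the log2 fold changes was 0.97 for *Id4* (95% confidence interval 0.21 to 1.72, unadjusted p = 0.0176, adjusted p = 1.00 in edgeR). None of the 10 genes passed in this test, nor did any of the 13511 genes, of which 3.73% had an unadjusted p under 0.05. Between microglia-like and barrier endothelial-like cells 0 of 10 genes and 0 of 13643 genes passed as well, where 6.9% had an unadjusted p under 0.05. The difference nearest to the threshold there was that of *Tgfbr1*, -0.59 (-1.30 to 0.11, adjusted p = 0.698).

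In microglia-like cells, *Tgfbr1*, at the values given above, had a log2 fold change of -0.41 (SE 0.29, 95% confidence interval -1.08 to 0.26, adjusted p = 0.730), and the groups overlapped through ArcSwe replicate 2. Without the clusters poor in ribosomal transcripts, which leaves 5 mice because ArcSwe replicate 2 had 16 cells, *Tgfbr1* was at 1027, 979, and 1479 CPM in the WT mice and 750 and 696 CPM in ArcSwe replicates 1 and 3. The groups then did not overlap, as was the case for 3580 of the 10537 genes tested with 3 against 2 mice. The log2 fold change of *Tgfbr1* was -0.51 (adjusted p = 0.291 in edgeR), where 1.67% of all genes were called. By cluster, *Tgfbr1* was at 983 to 1518 CPM in the WT mice and at 907 and 816 CPM in ArcSwe replicates 1 and 3 in the cluster richest in UMIs. In the cluster that held at least 20 cells of all 6 mice, which was poor in ribosomal transcripts, *Tgfbr1* was at 932, 1084, and 1166 CPM in WT and 791, 1116, and 863 CPM in ArcSwe mice, and the genotypes overlapped. In a cluster that held at least 20 cells only in these ArcSwe replicates and expressed *Cst7*, a gene of reactive microglia, at 1066 and 929 CPM, *Tgfbr1* was at 609 and 708 CPM. Another cluster with *Cst7* (1735 CPM) held at least 20 cells only in ArcSwe replicate 1, with *Tgfbr1* at 220 CPM from 17 UMIs. In the cluster with most microglia-like cells of WT replicate 3, *Tgfbr1* was at 1787 CPM in that mouse and at 1110 and 1355 CPM in ArcSwe replicates 1 and 3. *Tgfbr2* was at 382, 362, and 505 CPM in the microglia-like cells of WT and 438, 459, and 489 CPM in those of ArcSwe mice. These values overlapped because of WT replicate 3, but after TMM scaling *Tgfbr2* was the only gene without overlap in the class (log2 fold change 0.21, 95% confidence interval -0.28 to 0.70, adjusted p = 0.790), beside 14.2% of all genes.

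*Tgfb1* in microglia-like cells was at 385, 383, and 253 CPM in WT and 352, 418, and 333 CPM in ArcSwe mice, with overlap (log2 fold change 0.13, 95% confidence interval -0.52 to 0.79). The genes with high endothelial levels all had positive values there, of 0.58 for *Eng*, 0.62 for *Acvrl1*, 0.24 for *Bmpr2*, 0.43 for *Smad6*, 0.78 for *Id1*, and 1.03 for *Tgfbr3*, with overlap for each and intervals that included 0. Endothelial markers also varied between the mice, not always in step with *Eng*. They stood in microglia-like cells at 3.69%, 3.85%, and 17.1% of their endothelial level in WT replicates 1 to 3 and at 12.2%, 3.87%, and 26.7% in ArcSwe replicates 1 to 3, while *Eng* was at 80.3, 78.6, and 198 CPM and at 130, 125, and 240 CPM. Their part in these differences was not tested. Without WT replicate 3, edgeR gave an unadjusted p under 0.05 for 3025 of the 11987 genes tested, and 5300 had no overlap. In that refit the log2 fold changes were 1.02 for *Eng* (adjusted p = 0.0948), 1.10 for *Smad6* (0.0944), 1.12 for *Acvrl1* (0.131), and 2.21 for *Tgfbr3* (0.0854). Without the clusters poor in ribosomal transcripts they were 0.87 for *Eng* (adjusted p = 0.242), 1.64 for *Tgfbr3* (0.174), 1.47 for *Id1* (0.183), 0.80 for *Acvrl1* (0.329), 0.71 for *Smad6* (0.462), 0.097 for *Bmpr2* (0.910), 0.45 for *Tgfbr2* (0.296), and 0.041 for *Tgfb1* (0.968). Markers of other cells also separated the genotypes in microglia-like cells, with summed astrocyte markers at 137 to 260 CPM in WT and 114 to 127 CPM in ArcSwe mice and oligodendrocyte markers at 27.5 to 28.7 and 37.1 to 39.4 CPM. Their part was not tested either. Over all 9 genes tested the median was 0.43, beside -0.017 over all genes. With the replicate number as a block, 0 of 9 genes and 0.589% of all genes passed. No label says that same-numbered mice are paired.

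**Figure D4:**
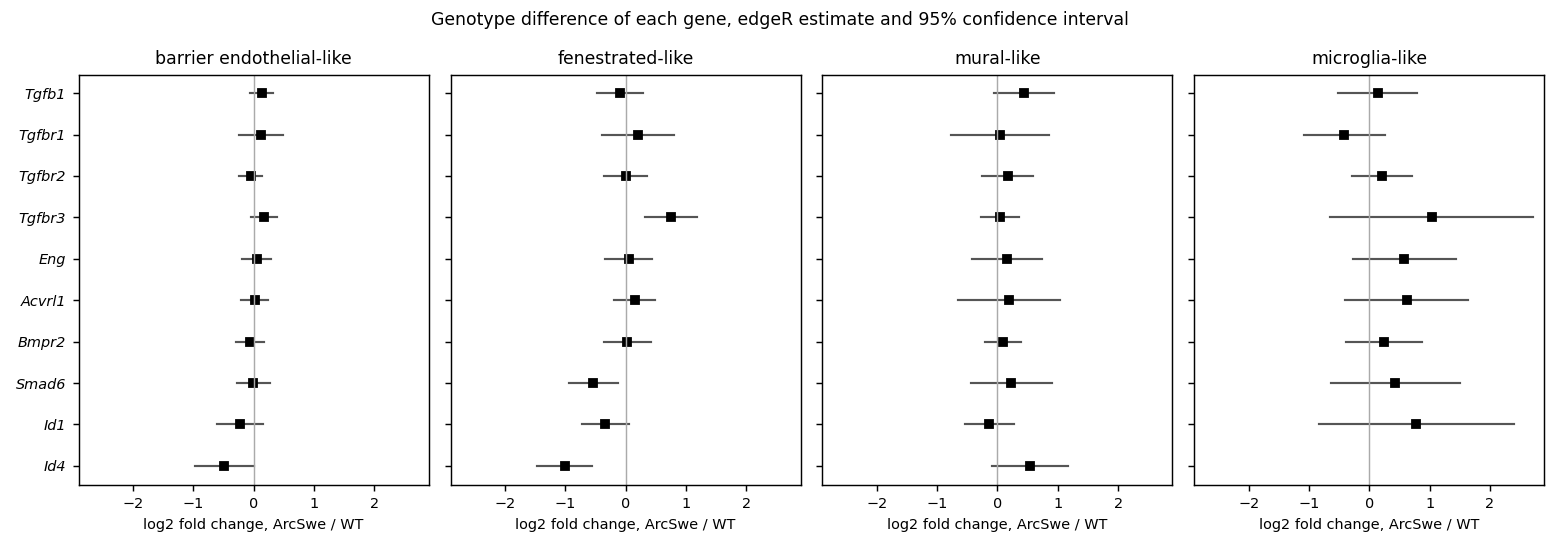
Log2 fold change of ArcSwe over WT for each gene in barrier endothelial-like, fenestrated-like, mural-like, and microglia-like cells, with the edgeR estimate as a square and its 95% confidence interval as a line (3 mice against 3; *Id4* was not tested in microglia-like cells). In barrier endothelial-like cells all 10 estimates lie between -0.49 and 0.18, and only *Tgfbr3*, *Smad6*, and *Id4* in fenestrated-like cells have an interval that leaves out 0, before adjustment over all genes.

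Among the 59 other genes of the pathway, 47 were tested in barrier endothelial-like cells, 36 in fenestrated-like, 47 in mural-like, and 37 in microglia-like cells, and 0 passed in any class (edgeR with all mice and the filter on low counts; DESeq2 also called 0). At an unadjusted p under 0.05 there were 2 higher and 2 lower in barrier endothelial-like cells (8.51% of those tested, beside 4.43% of all genes), 1 higher and 2 lower in fenestrated-like cells (8.33% beside 4.06%), 1 higher and 0 lower in mural-like cells (2.13% beside 2.53%), and 4 higher and 1 lower in microglia-like cells (13.5% beside 7.78%).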

How the data were processed

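Per the file headers and labels, the authors aligned and counted each library with Cell Ranger 7.0.0 on mm10 and deposited raw UMI counts per gene and cell, which were used as deposited. The 10 genes and the lists were chosen with earlier results of these data known. Cells with 500 to 4500 genes and under 10% mitochondrial counts were kept. Mitochondrial, ribosomal, pseudogene, and Rik genes were removed (29581 genes kept). Cells were clustered (scanpy 1.11.5, leidenalg 0.10.2, resolution 1) without the pathway genes and named from markers. Barrier endothelial-like cells with a *Cx3cr1* or *Aif1* UMI were left out (1869 of 13198 WT and 3489 of 16240 ArcSwe cells). Scrublet's own threshold marked under 0.5% of cells in 5 of 6 libraries, so the top 5% were marked there, and leaving these cells out was an alternative. Counts were summed per mouse and class and tested with edgeR 4.0.16 (quasi-likelihood test, TMM, filterByExpr, Benjamini-Hochberg over all genes, two-sided), with R 4.3.3, and DESeq2 1.42.0 as an alternative. The test was checked on simulated data. Alternatives were RLE scaling, no filter on low counts, stricter cell filters, resolution 2, the replicate block, and each mouse left out, and, added after seeing the data, leaving out a cluster led by predicted genes and the pericyte-like cells rich in endothelial transcripts. All 3 correlations of same-numbered mice were above 0.1 in microglia-like cells only (0.210, 0.167, and 0.374), so the result with the replicate block is given there. They were positive in most other classes too, as in smooth muscle-like cells (0.0915, 0.288, and 0.434). In microglia-like cells the differently numbered WT replicate 2 and ArcSwe replicate 1 correlated at 0.149, and no label names a pairing. Named pathway genes were the 3 of each role group with the highest mean level; the alike genes were the 3 with the highest Pearson's r per member. The total count per library sets the counting error, and intervals cover the spread between mice. The values of 1 gene of the pathway list are not reported here.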

Additional observations from a re-analysis of the deposited data

Results flagged for a closer look

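The genotype difference of *Id4* had opposite signs in vessel classes, with every ArcSwe mouse below every WT mouse in one class and above in the other. The log2 fold change in arterial-like endothelial cells minus that in smooth muscle-like cells was -1.43, and that in fenestrated-like endothelial cells minus that in smooth muscle-like cells was -1.57. Neither difference was tested between these classes, and *Id4* passed an adjusted p of 0.05 in none of them with edgeR as reported.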

How the results depend on the processing

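Over the 86 pairs of a gene and a class, 664 of 686 refits kept the sign and the side of the threshold, 21 changed sign, and 1 passed the threshold. That was *Id4* in fenestrated-like cells without the filter on low counts, where the number of the 10 genes called was 1. Leaving out a mouse changed the sign in 74 of 516 refits, over 39 pairs, all with a reported value within 1.2 standard errors of 0. *Smad6* in barrier endothelial-like cells changed sign with microglial UMIs kept (0.039), without marked doublets (0.0052), without the cluster led by predicted genes (0.025), and with stricter cell filters (0.0030). *Tgfbr2* in fenestrated-like cells changed sign with RLE scaling (-0.00063), without the filter (-0.0062), and without marked doublets (-0.047). With a mouse left out, the log2 fold changes ran in barrier endothelial-like cells from -0.027 to 0.28 for *Tgfbr1*, -0.043 to 0.057 for *Acvrl1*, and -0.11 to 0.088 for *Smad6*. In fenestrated-like cells they ran from -0.24 to 0.029 for *Tgfb1*, -0.013 to 0.55 for *Tgfbr1*, -0.057 to 0.12 for *Tgfbr2*, -0.10 to 0.13 for *Eng*, and -0.081 to 0.11 for *Bmpr2*, and in microglia-like cells from -0.13 to 0.26 for *Tgfb1* and -0.071 to 1.36 for *Id1*. The cause of these changes was not tested.

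The replicate block changed no call of the 10 genes, and with it *Smad6* in barrier endothelial-like cells was at 8.0e-05. Outside microglia-like cells at least 1 same-numbered pair correlated under 0.1. With the block, 68 genes were called in microglia-like, 5 in arterial-like, and 1 in fenestrated-like cells.

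The number of genes called depended on the setting. In microglia-like cells edgeR called 4 genes, DESeq2 105, edgeR without the filter 96, without the clusters poor in ribosomal transcripts 176, without WT replicate 3 32, and without ArcSwe replicate 2 21. In arterial-like cells the count was 1, with DESeq2 12 and without the filter 113. DESeq2 called 13 genes in barrier endothelial-like, 13 in capillary-like, and 2 in fenestrated-like cells, where edgeR called 0. Without the filter edgeR called 62 in fenestrated-like, 34 in venous-like, and 15 in pericyte-like cells, again in place of 0. Without the filter *Bmp4* in arterial-like (log2 fold change 0.87, adjusted p = 4.2e-05) and *Inhbb* in fenestrated-like cells (-1.17, 0.00022) passed. Of the other pathway genes, 1 was also called in pericyte-like cells without the filter, 1 there without ArcSwe replicate 2, and 1 in microglia-like cells without the clusters poor in ribosomal transcripts.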
